A study of Mus musculus with 15 samples.

Results

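Loss of Puma on a telomerase-deficient background was examined here in the transcriptome of lineage-negative bone marrow cells, the immature fraction left after cells with markers of mature lineages are removed. The comparison sets 3 libraries labelled G3 mTerc-/-Puma-/- (replicates 1, 3 and 4, called the labelled double mutants below) against 4 libraries of G3 mTerc-/-Puma+/+ (replicates 1 to 4), 7 of the 15 libraries of the series. Its members are all expressed genes of chromosomes 1 to 19, and 18219 of the 40935 autosomal genes in the table passed the filter on low counts. Genes of chromosomes X and Y were fitted with the rest but are left out of the lists.

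Both groups lack mTerc, the RNA template of telomerase, and were bred to the third generation without it (G3). The labelled double mutants also carry the Puma-/- label, and both groups are secondary recipients, that is, CD45.1 mice that had been irradiated and received serially transplanted LSK stem and progenitor cells of CD45.2 C57BL/6J donors. The RNA came from cells of the femur sorted by magnetic beads, with no selection for donor cells named, so residual host cells could be present. The sex and age of the animals are not given in the labels. Puma (gene symbol Bbc3) is a BH3-only protein that p53 induces and that opens the mitochondrial route of apoptosis. Very short telomeres activate p53, and the loss of stem and progenitor cells by p53-driven cell death is a route to marrow failure. Early B cells are known for their sensitivity to p53 and to BH3-only proteins, because they rearrange their immunoglobulin genes and depend on a signal from the pre-B receptor to survive.

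The 7 libraries held 107734328 to 158367059 counts, and levels are given as normalized CPM, in which counts are scaled to the same library total after TMM scaling. Kit, the receptor of immature marrow cells, stood at 114 to 155 CPM and Mpo, an enzyme of myeloid progenitors, at 7630 to 12200 CPM in the 7 libraries. Transcripts of mature cells were present, with summed levels of the later B cell markers, immunoglobulin constant genes included, of 1860 to 4470 CPM in G3 mTerc-/-Puma+/+ and 4280 to 8260 CPM in the labelled double mutants, and with 3.60 to 26.7 CPM of the T cell gene Cd3e and 0.304 to 1.35 CPM of the B cell gene Ms4a1. Terc, the deleted gene, had 0 or 1 count in each of the 7 libraries, beside 4 to 17 counts in the 7 libraries of WT and Puma-/-. Bbc3 (chr7:16308393-16318205) stood at 14.7, 20.7, 20.5 and 11.7 CPM in G3 mTerc-/-Puma+/+ and at 17.0, 15.6 and 13.5 CPM in the labelled double mutants. The groups overlapped, with a log2 difference of -0.14 (SE 0.264, adjusted p = 0.988, edgeR), while the Puma-/- libraries held 5.02 to 6.80 CPM. The transcript level of the deleted gene therefore went against the label of these 3 libraries, and every direction below is that of libraries labelled G3 mTerc-/-Puma-/-. Xist, expressed from the inactive X chromosome, was at 663 and 446 CPM in the labelled double mutants 1 and 4, at 0.388 CPM in replicate 3, and at 0.177 to 89.0 CPM in G3 mTerc-/-Puma+/+. Ddx3y, a gene of the Y chromosome, was at 2.88, 46.0 and 4.27 CPM in replicates 1, 3 and 4 and at 42.8 to 48.3 CPM in G3 mTerc-/-Puma+/+, so that sex-linked expression and genotype label moved together in 2 of the 3 libraries. Replicate 1 of G3 mTerc-/-Puma+/+ stood apart in mast cell proteases, with 17.6 CPM of Mcpt4 beside 0 to 0.0250 CPM in the other 3 libraries of its group. Replicate 2 of the labelled double mutants is not drawn in the study's heatmaps and was left out, and its 1250 CPM of globin transcripts exceeded the 17.3 to 193 CPM of the 7 libraries compared.

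Of the 18219 genes, 11 passed an adjusted p of 0.05 in edgeR's quasi-likelihood test (0.0604% of those tested), and all 11 were higher in the labelled double mutants. Those described here are Fcrla, Blnk, Cplx2, Ly6d, Igll1, Blk, Fcmr, Arpp21, Cecr2 and Grm8. In all 11, each of the 3 labelled double mutants exceeded each of the 4 G3 mTerc-/-Puma+/+ libraries. The genes were called by comparing these same libraries, which favours such separation. Of the 11, 8 belong to the lists of B-lineage genes described below. These lists hold 15, 21 and 16 of the 18219 tested genes. They were chosen with earlier results of these data known, so the overlap is no independent result. At an unadjusted p under 0.05, 797 genes were higher (4.37%) and 308 lower (1.69%). The libraries did not overlap for 575 genes in the higher direction (3.16%) and for 435 in the lower (2.39%). The median log2 fold change over all tested autosomal genes was -0.015, with 8430 genes higher and 9789 lower. The number of calls depended on the fit: 0 genes passed when the 2 groups were fitted alone (856 at an unadjusted p under 0.05), 164 passed in DESeq2, 8 in limma-voom and 5 with all 15 libraries. Only Fcrla and Blnk passed whichever of the 7 libraries was left out. The labels do not say whether the libraries of a group came from separate animals, and p-values then measure the spread between these samples.

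**Figure D1:**
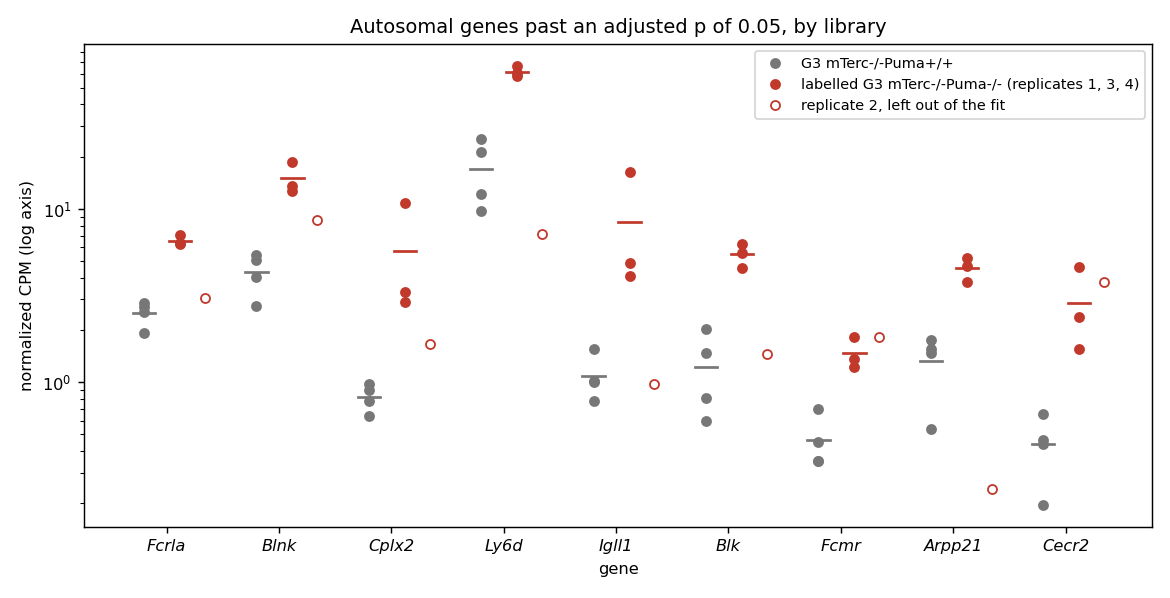
Level of 9 of the 11 called genes in each library, in normalized CPM on a log axis; filled points are the 7 libraries compared, short lines their group means and open points replicate 2 of the labelled double mutants, which was not fitted. Grm8 is not drawn because 2 libraries are at 0. In each gene the 3 filled points of the labelled double mutants lie above the 4 of G3 mTerc-/-Puma+/+, while replicate 2 lies among or below the latter for Ly6d, Igll1, Blk and Arpp21.

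Of the lists examined, the pre-B receptor and its signalling had the highest median in the fit of the 3 libraries against 4. By single library it was highest in labelled double mutant 3 alone, at 2.0. In replicate 1 the erythroid and immediate early lists (1.3 each) and the early B list (0.96) exceeded its 0.86. In replicate 4 the late neutrophil granule list was higher, at 1.4 beside 1.0. The erythroid list was higher with the left-out replicate added (2.3). The pre-B receptor pairs an immunoglobulin heavy chain with a surrogate light chain made of Igll1 and a VpreB protein. Cd79a and Cd79b carry its signal inward to the kinases Blk, Lyn and Syk and the adaptor Blnk. Of 15 tested genes of the pre-B receptor list, 14 were higher and 1 lower. Of the 15, 4 passed the adjusted threshold, and 8 had an unadjusted p under 0.05 beside 4.37% of all genes. The median log2 fold change of the list was 1.3. With the left-out replicate added, 2 genes of the list passed, among 5 autosomal genes called in all, and the median was 1.4. Without replicate 3 the median was 0.79 with 3 genes of the list passing, among 8 autosomal genes called in all.

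Igll1 (chr16:16860671-16863985), the surrogate light chain component lambda 5, stood at 1.56, 0.774, 0.999 and 1.01 CPM in G3 mTerc-/-Puma+/+ and at 4.10, 16.2 and 4.89 CPM in labelled double mutants 1, 3 and 4. The groups were separate, replicate 3 was more than 3 times as high as the other labelled double mutants, and the difference was 2.95 on the log2 scale (SE 0.453, adjusted p = 0.0376). Its partner Vpreb1 moved from 0.921 to 1.46 CPM in the first group to 3.06, 13.1 and 3.18 CPM in the second, a log2 difference of 2.56 (SE 0.456) that missed the threshold (adjusted p = 0.0609). Vpreb3 had 0.275 to 1.03 CPM against 1.89, 7.81 and 2.54 CPM (log2 2.51, adjusted p = 0.0675). The near-identical Vpreb2 was at 0.00980 to 0.195 CPM against 0.219, 2.23 and 0.484 CPM (log2 3.17, adjusted p = 0.196), and reads of Vpreb1 and Vpreb2 may not be fully told apart. In all 3 of these genes replicate 3 was again the highest library.

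Blnk (chr19:40928927-40994535), the adaptor that links Syk to downstream enzymes, was at 5.08, 4.05, 2.76 and 5.42 CPM in G3 mTerc-/-Puma+/+ and at 12.7, 18.7 and 13.5 CPM in the labelled double mutants. The group means were 4.33 ± 1.2 (SD, n = 4) and 15 ± 3.27 CPM (n = 3), and the difference of 1.79 on the log2 scale (SE 0.229, adjusted p = 0.00780) kept an adjusted p under the threshold without any single library. Blk (chr14:63372836-63417037), a Src-family kinase of B cells, was at 1.47, 0.598, 0.808 and 2.02 CPM against 6.25, 4.54 and 5.55 CPM, with 2.15 as the log2 difference (SE 0.345, adjusted p = 0.0386). Unlike Igll1, Blk was lowest in replicate 3 among the labelled double mutants. Cd79a did not separate the groups, with 3.36 to 11.9 CPM against 11.0 to 26.8 CPM (log2 1.30, adjusted p = 0.375). Cd79b, the B-lineage partner of Cd79a, was at 29.3 to 34.2 CPM against 30.5, 35.6 and 41.9 CPM, with overlap (log2 0.18, adjusted p = 0.906). The members that other blood lineages also express had log2 differences of 0.07 for Lyn, 0.05 for Syk, 0.03 for Plcg2 and -0.10 for Vav3.

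RefSeq promoters (GRCm38.p6, 250 bases before and 50 after the start) were searched for the E-box of E2A, a factor needed for B-lineage entry, as CAGGTG on both strands, and for the palindrome of EBF1, TCCCNNGGGA, which reads the same on both strands. The E-box stood in a promoter of 9 of the 12 pre-B receptor genes with an entry (75.0%), of 6 of 9 plasmacytoid dendritic cell genes (66.7%), of 4 of 19 early B genes (21.1%) and of 22.6% of all 27025 genes. The EBF1 palindrome stood in 1 of the 12, in 1 of the 19 and in 1.06% of all genes. For the 7 called genes with an entry, 6 had an E-box in a promoter and 0 the palindrome, and Arpp21 has several entries, which raises its chance of a match. Of the called B-lineage genes, Fcmr held its E-box 37 bases after the start, Ly6d and Blk had no entry, and these and Arpp21 are not shown. The 250 bases before the start are shown for Igll1, Blnk, Fcrla and Vpreb1, which were picked as windows that hold the E-box. The E-box is in capitals, so that the site can be seen against the start at the right end of each run.
Igll1 promoter, chr16:16863986-16864235, minus strand: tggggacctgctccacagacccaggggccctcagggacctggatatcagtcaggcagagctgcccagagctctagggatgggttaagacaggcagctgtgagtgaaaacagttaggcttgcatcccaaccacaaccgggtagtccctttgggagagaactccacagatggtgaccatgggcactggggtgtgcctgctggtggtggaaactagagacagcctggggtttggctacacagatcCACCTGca
Vpreb1 promoter, chr16:16869256-16869505, minus strand: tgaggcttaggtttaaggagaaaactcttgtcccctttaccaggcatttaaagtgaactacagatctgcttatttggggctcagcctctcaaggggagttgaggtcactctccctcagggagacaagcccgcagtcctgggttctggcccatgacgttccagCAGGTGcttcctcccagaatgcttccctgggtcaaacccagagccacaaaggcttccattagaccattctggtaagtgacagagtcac
Blnk promoter, chr19:40994222-40994471, minus strand: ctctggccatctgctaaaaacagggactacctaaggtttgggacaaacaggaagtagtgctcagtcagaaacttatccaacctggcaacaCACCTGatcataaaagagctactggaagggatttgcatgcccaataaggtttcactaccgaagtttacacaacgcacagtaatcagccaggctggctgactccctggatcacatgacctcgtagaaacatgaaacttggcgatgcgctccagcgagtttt
Fcrla promoter, chr1:170927584-170927833, minus strand: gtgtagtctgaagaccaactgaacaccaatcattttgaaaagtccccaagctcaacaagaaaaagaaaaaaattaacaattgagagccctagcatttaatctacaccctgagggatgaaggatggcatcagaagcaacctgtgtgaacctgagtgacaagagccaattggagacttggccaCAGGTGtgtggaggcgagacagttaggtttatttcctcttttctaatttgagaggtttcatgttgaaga
The E-box starts 8 bases before the RefSeq transcription start in Igll1, 88 in Vpreb1, 160 in Blnk and 69 in Fcrla. For Blnk the printed window lies within the gene span given above, whose own start is upstream of the RefSeq start used here. A match is a run of letters in this window and was not tested as a site of binding.

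The genes of early B and lymphoid specification were higher by a smaller median. These are the factors that open the B-lineage programme (Ebf1, Pax5), the recombinase that joins immunoglobulin segments (Rag1, Rag2), the enzyme that adds bases at the joints (Dntt) and receptors of lymphoid progenitors (Il7r, Flt3). All 21 tested genes were higher, with a median log2 fold change of 0.72. Of these, 13 had an unadjusted p under 0.05, beside 4.37% of all genes, and 2 passed the adjusted threshold. With the left-out replicate added, 20 of the 21 were higher and 0 passed. In that fit 9 had an unadjusted p under 0.05, beside 1836 autosomal genes in either direction.

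Ly6d (chr15:74762056-74763620), a surface protein that marks the lymphoid progenitors committed to the B lineage, stood at 21.2, 12.2, 9.64 and 25.1 CPM in G3 mTerc-/-Puma+/+ and at 60.4, 58.4 and 66.6 CPM in the labelled double mutants, a log2 difference of 1.86 (SE 0.273, adjusted p = 0.0376). The 3 labelled double mutants were within 58.4 to 66.6 CPM, a narrower range than that of the other group, whereas replicate 2 held 7.12 CPM. Arpp21 (chr9:112065091-112235938), which encodes a cAMP-regulated phosphoprotein, was at 1.48, 0.539, 1.74 and 1.55 CPM against 5.22, 4.67 and 3.76 CPM (log2 1.78, SE 0.289, adjusted p = 0.0386). Pax5, the B-lineage commitment factor, was at 0.176 to 1.05 CPM against 3.32, 8.25 and 1.91 CPM, a log2 difference of 3.25 with a wide error (SE 0.629, adjusted p = 0.0874). Ebf1 was at 1.14 to 2.22 CPM against 3.30, 8.18 and 2.72 CPM (log2 1.65, adjusted p = 0.172). Dntt, terminal transferase, was at 10.8 to 48.3 CPM against 103, 148 and 98.9 CPM (log2 1.91, adjusted p = 0.196), and the left-out replicate had 0.327 CPM. Rag1 was at 0.0784 to 1.2 CPM against 2.52, 7.76 and 2.47 CPM (log2 2.81, adjusted p = 0.198). Each of these 4 genes separated the groups without passing the adjusted threshold. The factors Tcf3 (which encodes E2A) and Ikzf1 differed by 0.08 and 0.12 on the log2 scale.

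**Figure D2:**
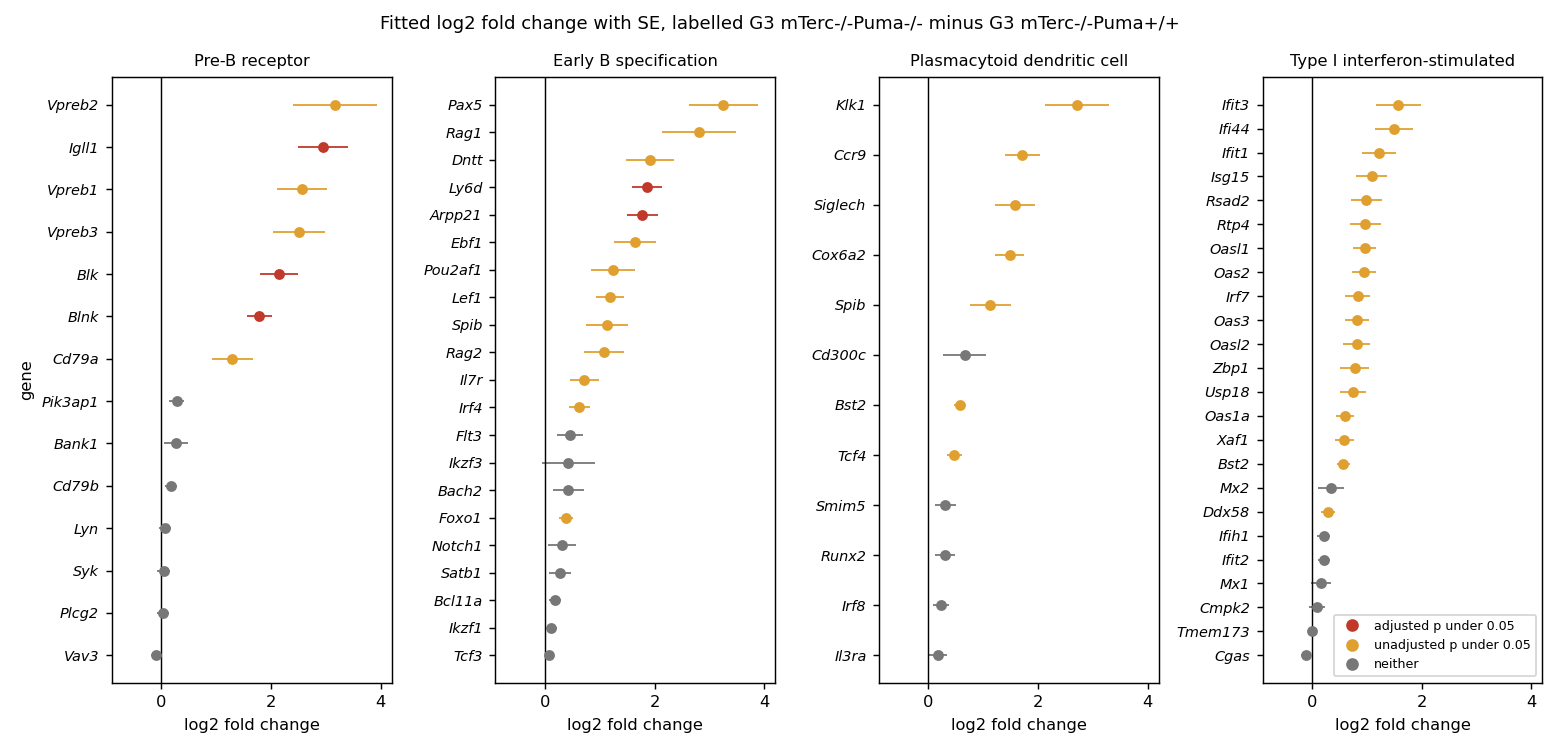
Fitted log2 fold change of the genes described of 4 lists, as points with the standard error as bars; red marks an adjusted p under 0.05, orange an unadjusted p under 0.05 and grey neither. The 14 pre-B receptor genes drawn fall into 7 at or above 1.30 and 7 at or below 0.28, while the 24 interferon-stimulated genes spread from -0.11 to 1.57 with 0 past the adjusted threshold.

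Markers of later B cells were higher by less. Of 16 tested genes 15 were higher, and the median log2 fold change was 0.48. Of the 16, 8 had an unadjusted p under 0.05, beside 4.37% of all genes, and 2 passed the adjusted threshold. Fcrla (chr1:170917576-170927583), an intracellular Fc receptor-like protein of B cells, had the lowest p of all tested autosomal genes. It stood at 2.71, 2.54, 1.91 and 2.86 CPM in G3 mTerc-/-Puma+/+ and at 7.03, 6.31 and 6.25 CPM in the labelled double mutants, a log2 difference of 1.38 (SE 0.164, adjusted p = 0.00780). The exact permutation test of the 3 against the 4 libraries gave p = 0.0571 (two-sided), the smallest it can give for 3 against 4, so this test cannot reach 0.05 in any gene here. Fcmr (chr1:130865669-130880791), the receptor of IgM, was at 0.453, 0.353, 0.350 and 0.698 CPM against 1.81, 1.22 and 1.36 CPM (log2 1.66, SE 0.267, adjusted p = 0.0386). The genes Ms4a1 (CD20) and Cxcr5 were 1.35 and 1.09 higher on the log2 scale and missed the threshold (adjusted p = 0.0988 and 0.299). Markers with little difference were Cd22 at 0.23, Cd37 at 0.02 and Cr2 at -0.05. In bulk RNA a larger number of B-lineage cells, more of these transcripts per cell and transcripts of other cell types cannot be told apart. Genes of plasmacytoid dendritic cells, described below, were higher too. Their part in the results of the B-lineage lists was not tested.

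Transcripts of the immunoglobulin loci varied widely within the groups. The kappa constant gene Igkc ran from 1060 to 3120 CPM in G3 mTerc-/-Puma+/+ and from 2760 to 5160 CPM in the labelled double mutants, with overlap (log2 1.0, adjusted p = 0.596). Ighm, the mu heavy chain, reached 4740 CPM in labelled double mutant 1 beside 1460 and 1220 CPM in replicates 3 and 4 and 527 to 1350 CPM in the other group (log2 1.38, adjusted p = 0.709). Of 190 tested variable segments 106 were higher and 84 lower, and 0 passed. At an unadjusted p under 0.05, 16 segments were higher and 7 lower, beside 4.37% and 1.69% of all genes. The summed level of the segments was 788 to 3270 CPM in G3 mTerc-/-Puma+/+ and 1890 to 3010 CPM in the labelled double mutants. In some segments 1 or 2 libraries held most of the transcripts, and the examples were chosen after their values were seen. Igkv4-57-1 held 649 CPM in labelled double mutant 3 beside 0.679 to 11.8 CPM in the other 6 libraries. Igkv1-110 held 507 CPM in replicate 4 and 253 CPM in replicate 3 beside 16.8 to 50.4 CPM in the other 5.

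The called genes outside the B-lineage lists were Cplx2, Cecr2 and Grm8. Cplx2 (chr13:54371349-54383917), a complexin that regulates vesicle fusion, was at 0.980, 0.774, 0.641 and 0.902 CPM against 2.90, 10.8 and 3.32 CPM (log2 2.78, SE 0.420, adjusted p = 0.0367). Cecr2 (chr6:120666369-120771190), a bromodomain protein of a chromatin remodelling complex, was at 0.461, 0.196, 0.658 and 0.437 CPM against 2.39, 4.62 and 1.55 CPM (log2 2.69, SE 0.439, adjusted p = 0.0386). In both genes replicate 3 was the highest library, as it was for Igll1. Grm8 (chr6:27275119-28135178), a metabotropic glutamate receptor, rested on 62 counts in the labelled double mutants and 4 in G3 mTerc-/-Puma+/+, where 2 libraries had 0. The ratio of those counts per library total was 18.4 (95% exact interval 6.82 to 69.5, counting error only), its adjusted p was 0.0414, and it was called in 1 of the 7 fits that left out a library.

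Genes of plasmacytoid dendritic cells, the main producers of type I interferon, were higher as well. All 12 tested genes were higher, with a median log2 fold change of 0.62. Of these, 7 had an unadjusted p under 0.05 and 7 had libraries that did not overlap, beside 4.37% and 3.16% of all genes. In edgeR 0 passed the adjusted threshold, beside 5 in DESeq2, which called 164 autosomal genes in all. With a replicate block 4 passed, namely Ccr9 (adjusted p = 0.0276), Klk1 (0.0390), Siglech (0.0396) and Cox6a2 (0.0415), although the numbers do not pair the libraries. The fit with that block called 18 autosomal genes in all. Cox6a2, a cytochrome c oxidase subunit known from muscle and these cells, was at 7.47, 2.84, 3.78 and 6.64 CPM in G3 mTerc-/-Puma+/+ and at 14.7, 13.6 and 15.1 CPM in the labelled double mutants (log2 1.48, SE 0.262, adjusted p = 0.0609). Siglech, their surface lectin, was at 8.04 to 23.2 CPM against 50, 41.1 and 47.4 CPM (log2 1.57, adjusted p = 0.194), and Ccr9 at 1.75 to 3.49 CPM against 10.9, 4.68 and 10.5 CPM (log2 1.71, adjusted p = 0.0675). Both genes separated the groups. Among transcription factors of the list, the log2 differences were 1.13 for Spib, 0.47 for Tcf4, 0.30 for Runx2 and 0.23 for Irf8. The left-out replicate went the other way, with 0.129 CPM of Siglech and 0.559 CPM of Cox6a2. A fit with all 15 libraries gave a list median of 0.31. In that fit 2 genes of the list had an unadjusted p under 0.05, beside 1836 autosomal genes in either direction. Spib belongs to both this and the early B list, and Bst2 to both this and the interferon list.

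Type I interferon-stimulated genes, the antiviral effectors induced through the interferon receptor, were higher by a median log2 fold change of 0.76. Of 24 tested genes 22 were higher, 17 at an unadjusted p under 0.05 and 17 without overlap of libraries. Of all tested autosomal genes, 4.37% were higher at that p and 3.16% higher without overlap. Of the list, 0 genes passed the adjusted threshold in edgeR, beside 9 in DESeq2, which called 164 autosomal genes in all. Isg15, a ubiquitin-like modifier, was at 5.49, 2.53, 2.79 and 2.99 CPM in G3 mTerc-/-Puma+/+ and at 5.64, 7.53 and 8.94 CPM in the labelled double mutants (log2 1.09, SE 0.281, adjusted p = 0.239). Oas2, which makes the activator of RNase L, was at 5.19, 6.57, 4.89 and 5.32 CPM against 10.5, 9.56 and 11.7 CPM (log2 0.95, SE 0.220, adjusted p = 0.161). Ifit1, which binds foreign RNA, was at 1.24 to 2.36 CPM against 2.49, 4.16 and 4.08 CPM (log2 1.22, adjusted p = 0.231). In Isg15 and Ifit1 it was G3 mTerc-/-Puma+/+ replicate 1 that came close to labelled double mutant 1. Without that replicate 6 genes of the list passed the adjusted threshold, among 45 autosomal genes called in all, and the list median was 0.93. The sensors Cgas and Tmem173 (STING) differed by -0.11 and -0.01, and Mx1 by 0.16. The interferon-gamma-induced GTPases were higher in 15 of 15 genes by a median of 0.32, with 0 at an unadjusted p under 0.05.

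The interferon-stimulated response element was searched in the same promoters as GAAANNGAAA on both strands, a motif added after the values were seen. It stood in 9 of the 17 interferon-stimulated genes with an entry (52.9%) and in 3.99% of all 27025 genes, in 2 of 9 plasmacytoid dendritic cell genes (22.2%) and in 0 of the 12 pre-B receptor genes. Of the 7 called genes with an entry it stood in 2 (28.6%), Fcrla and Grm8, and the match in the Fcrla promoter printed above starts 192 bases before the start. The promoters of Isg15 and Ifit1 are shown with the element in capitals, where overlapping matches run together.
Isg15 promoter, chr4:156200819-156201068, minus strand: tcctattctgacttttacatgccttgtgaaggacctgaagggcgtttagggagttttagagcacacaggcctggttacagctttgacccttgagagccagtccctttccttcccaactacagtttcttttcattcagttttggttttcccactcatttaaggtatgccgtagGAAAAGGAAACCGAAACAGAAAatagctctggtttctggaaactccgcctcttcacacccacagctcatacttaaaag
Ifit1 promoter, chr19:34640639-34640888, plus strand: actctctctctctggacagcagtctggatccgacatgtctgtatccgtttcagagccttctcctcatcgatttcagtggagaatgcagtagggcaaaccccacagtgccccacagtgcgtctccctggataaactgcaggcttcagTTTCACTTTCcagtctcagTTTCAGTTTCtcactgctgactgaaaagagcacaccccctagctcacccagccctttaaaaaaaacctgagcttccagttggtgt
The first match starts 78 bases before the start in Isg15 and 104 in Ifit1.

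Of the protein-coding genes that were higher without passing, Cmah, Cox6a2, Havcr1, Chst3, Dusp16, D13Ertd608e, Apoc2 and Vpreb1 had the lowest p-values among those with separate groups and at least 1 CPM in a group. Cmah, the enzyme that makes N-glycolylneuraminic acid, was at 6.79 to 9.61 CPM against 20.3, 14.6 and 15.5 CPM (log2 1.10, SE 0.194, adjusted p = 0.0609). Havcr1 (TIM-1), a phosphatidylserine receptor, was at 0.274 to 0.731 CPM against 2.78, 1.94 and 2.20 CPM (log2 2.24, adjusted p = 0.0609). Dusp16, a phosphatase of JNK, was at 2.85 to 3.49 CPM against 7.32, 6.79 and 4.82 CPM (log2 1.03, adjusted p = 0.0609). Chst3, Apoc2 and D13Ertd608e differed by 1.86, 1.83 and 3.63 on the log2 scale, the last a member of a multicopy family whose reads may be shared. These 8 genes shared an adjusted p of 0.0609 in edgeR. DESeq2 called all 8 among its 164 autosomal calls. The 8 were picked by their low p in the same counts, so this is no independent result.

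Lower expression was less marked, and 0 autosomal genes passed in that direction in edgeR, beside 308 at an unadjusted p under 0.05 and 10 called by DESeq2. The lowest p belonged to Hist1h1t, a testis-type linker histone at 0.108 to 0.197 CPM against 0.0251, 0.0176 and 0.0234 CPM, the latter from 2 to 4 counts a library. Its log2 difference of -2.83 missed the threshold (SE 0.484, adjusted p = 0.0524) and passed it without robust moderation (0.0468), with all 15 libraries (0.0365) and with the Xist covariate (0.0384). Hist1h1t also passed without the low-count filter, and it lies outside the rule for named genes and was chosen after its values were seen. Erbb3 (chr10:128567523-128589652), a receptor of the EGF receptor family, had the lowest p among lower protein-coding genes of at least 1 CPM in a group. It was at 8.86, 11.0, 8.22 and 19.4 CPM in G3 mTerc-/-Puma+/+ and at 2.86, 1.53 and 4.03 CPM in the labelled double mutants, a log2 difference of -2.08 (SE 0.388, adjusted p = 0.0714) that passed with a replicate block. The left-out replicate was lower still at 0.757 CPM. Slfn9, a Schlafen family member, was at 56.2 to 64.4 CPM against 36.6, 42.8 and 42.5 CPM (log2 -0.57, adjusted p = 0.189), and Nnt, the mitochondrial transhydrogenase, at 58.6 to 71.7 CPM against 50.7, 51.1 and 49.8 CPM (log2 -0.35, adjusted p = 0.401). The other 5 genes of the rule were Zfp69, Fem1b, Zfp808, Prpf39 and Pbx3, with log2 differences from -0.91 to -0.20 and adjusted p-values from 0.189 to 0.428.

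The p53 axis was examined because Puma is a target of p53. Trp53 itself was at 205 to 220 CPM in G3 mTerc-/-Puma+/+ and at 213, 189 and 230 CPM in the labelled double mutants, a log2 difference of -0.02 (adjusted p = 0.998). Cdkn1a, the cell cycle inhibitor p21, was at 56.9, 56.4, 77.5 and 37.5 CPM against 110, 87.8 and 79.2 CPM (log2 0.69, SE 0.272, adjusted p = 0.693), so the groups were separate but the test was not passed. Of 33 tested p53 targets 22 were higher and 11 lower, with a median of 0.16. Of these targets, 3 were higher at an unadjusted p under 0.05, beside 4.37% of all genes, and 0 passed the adjusted threshold. Besides Cdkn1a those 3 were Zmat3, an RNA-binding protein, at 0.84 and Phlda3, an inhibitor of AKT, at 0.93 on the log2 scale. Cdkn2b, the inhibitor p15, was at 0.0784 to 0.190 CPM against 0.207, 0.281 and 0.453 CPM (log2 1.28, adjusted p = 0.466). The BCL2 family, 16 tested genes with Bbc3 among them, had a median of 0.055 and 0 genes at an unadjusted p under 0.05, as had the 15 caspase and apoptosome genes with a median of -0.022. All 20 mitosis genes were lower by a median of -0.10 with Bub1 at -0.30 (adjusted p = 0.465), and 22 of 28 DNA repair genes were lower by a median of -0.083.

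**Figure D3:**
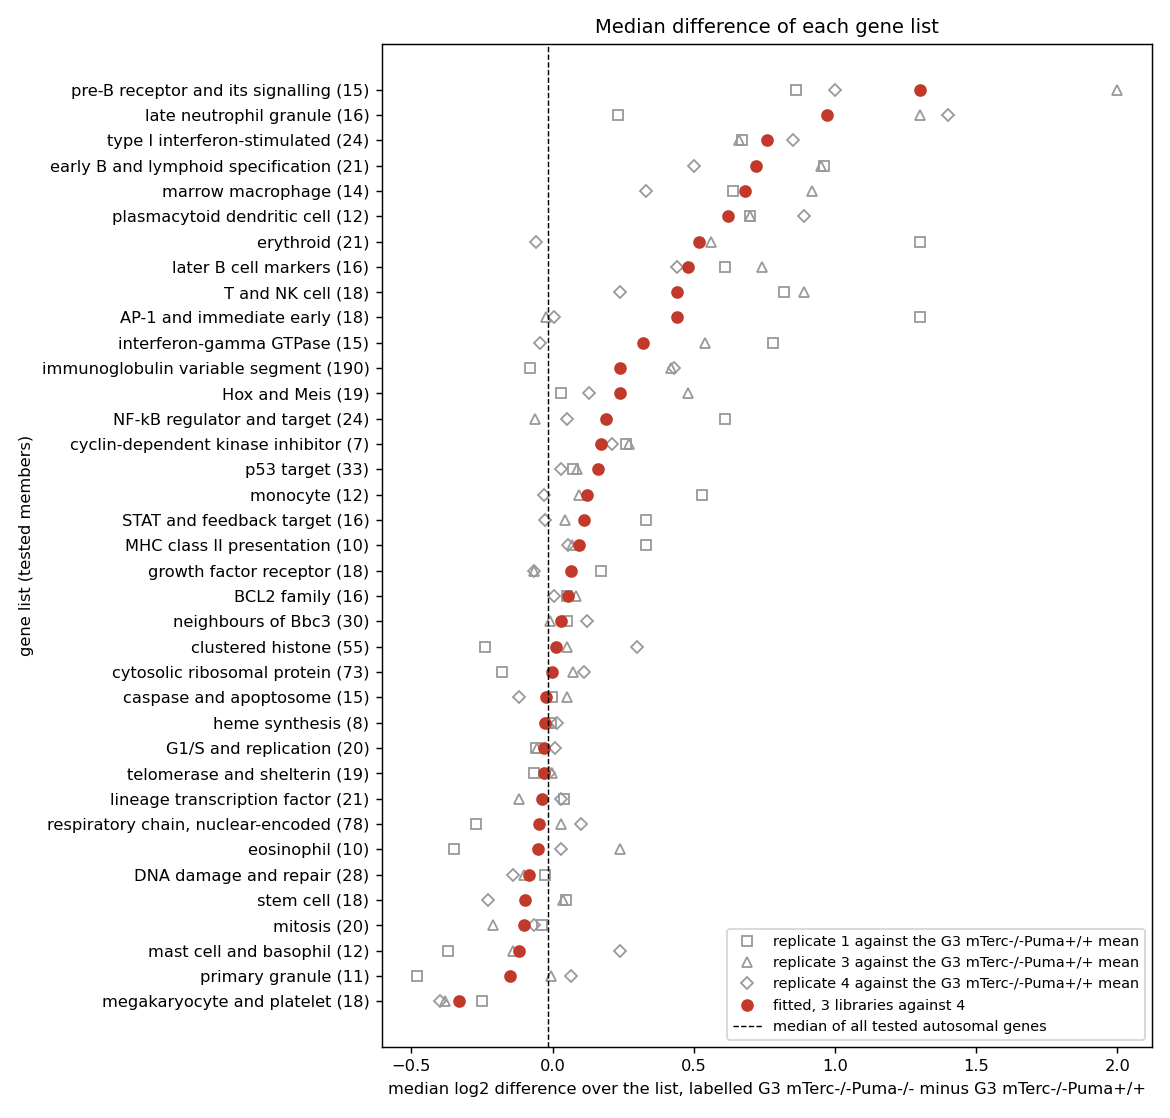
Median log2 difference of each gene list between the labelled double mutants and G3 mTerc-/-Puma+/+; red points are medians of fitted log2 fold changes, open squares, triangles and diamonds are labelled double mutants 1, 3 and 4 against the mean of the other group, and the dashed line is the median of all tested autosomal genes, -0.015. The pre-B receptor list is at 1.3 with single-library medians of 0.86, 2.0 and 1.0, while the AP-1 list at 0.44 rests on replicate 1 alone, at 1.3 beside -0.024 and 0.0054.

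Late neutrophil granule genes were higher in 15 of 16 cases with a median of 0.97. Of the 16, 5 had an unadjusted p under 0.05, beside 4.37% of all genes, and 0 passed the adjusted threshold. Camp, the antimicrobial peptide cathelicidin, was at 90.8 to 159 CPM against 149, 331 and 442 CPM, and replicate 1 lay within the range of the other group. Erythroid genes were higher in 20 of 21 cases with a median of 0.52, which was 0.099 without labelled double mutant 1 and 2.3 with the left-out replicate added. Hba-a1, an alpha globin whose copy Hba-a2 shares reads with it, was at 6.33 to 19.8 CPM against 67.4, 28.2 and 11.5 CPM. The summed erythroid level was 362 to 497 CPM against 711, 562 and 444 CPM, so replicate 1 was the highest here, whereas Igll1 was highest in replicate 3. Immediate early genes were higher in all 18 cases by a median of 0.44, which was -0.11 without replicate 1, and the 24 NF-kB regulators and targets went from 0.19 to -0.0099 in the same way. The 18 megakaryocyte and platelet genes were mostly lower, 15 against 3, with a median of -0.33, similar values of -0.25, -0.38 and -0.40 in the 3 libraries, and 1 gene, Vwf, at an unadjusted p under 0.05 (log2 -0.60, adjusted p = 0.672). Marrow macrophage genes were higher in 13 of 14 cases by a median of 0.68, close to the early B and plasmacytoid lists, with 0.64, 0.92 and 0.33 in labelled double mutants 1, 3 and 4. Of these 14, 2 had an unadjusted p under 0.05 and 0 passed the adjusted threshold. Adgre1, which encodes the macrophage antigen F4/80, was at 10.2 to 17.1 CPM against 35.6, 25.7 and 16.4 CPM (log2 0.91, adjusted p = 0.379). The complement gene C1qa was at 0.696 to 7.87 CPM against 8.26, 9.99 and 5.58 CPM (log2 1.2, adjusted p = 0.859), and both genes overlapped between the groups. The summed macrophage level was 112 to 232 CPM against 213 to 337 CPM, and the list median was 0.30 without labelled double mutant 3. The part of macrophage transcripts in the other list results was not tested. The T and NK cell list was higher in 16 of 18 genes by a median of 0.44, near the 0.48 of the later B markers. Its medians were 0.82, 0.89 and 0.24 in labelled double mutants 1, 3 and 4, and 0 genes passed the adjusted threshold. Stem cell genes had a median of -0.097, MHC class II genes 0.095, monocyte genes 0.12 and cytosolic ribosomal proteins -0.0023, each with 0 genes past the adjusted threshold.

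The level of the called genes in the other genotypes of the series places both groups. For 9 of the 11 every labelled double mutant exceeded every WT library, and for 7 of the 11 every Puma-/- library. These genes were called because the same labelled double mutants were high, which favours such counts. No share over all tested genes is given beside them. Fcrla was at 4.38 to 6.62 CPM in WT and 5.68 to 6.53 CPM in Puma-/-, close to the 6.25 to 7.03 CPM of the labelled double mutants and above the 1.91 to 2.86 CPM of G3 mTerc-/-Puma+/+, whose log2 difference from WT was -1.15 (adjusted p = 0.0172). Fcmr was highest in Puma-/-, at 2.99 to 4.70 CPM, and G3 mTerc-/-Puma+/+ was lower than WT by -1.86 on the log2 scale (adjusted p = 0.0172). Igll1 had another order, with 1.29 to 2.02 CPM in WT and 0.974 to 2.37 CPM in Puma-/-, both under the 4.10 to 16.2 CPM of the labelled double mutants. Arpp21 was at 1.36 to 1.55 CPM in WT, and at 2.02 to 2.68 CPM in Puma-/-, above every G3 mTerc-/-Puma+/+ library and below every labelled double mutant. The comparisons share the G3 mTerc-/-Puma+/+ and WT libraries. Whether the Puma label acted differently with and without mTerc was tested as an interaction, and 0 of the 11 genes passed, with adjusted p-values from 0.122 (Fcrla) to 0.999 (Fcmr).

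**Figure D4:**
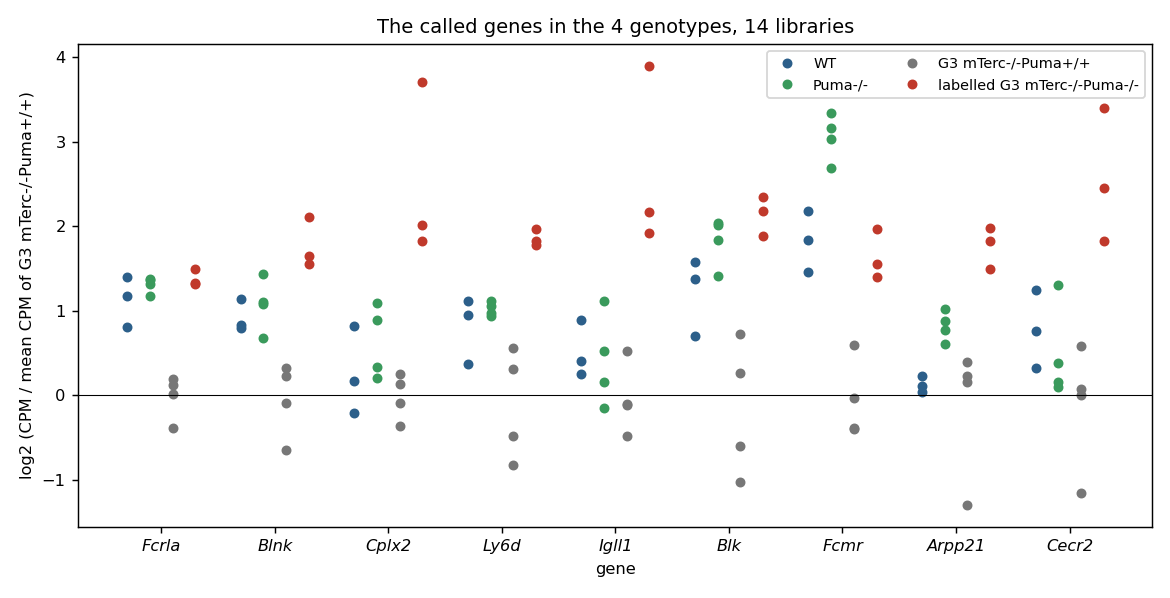
Level of 9 of the 11 called genes in the 14 fitted libraries, as log2 of the CPM over the mean CPM of G3 mTerc-/-Puma+/+ (line at 0), with 1 point a library and colours for the 4 genotypes. WT and Puma-/- lie near the labelled double mutants for Fcrla and near G3 mTerc-/-Puma+/+ for most Igll1 points. For Arpp21 the WT points lie among those of G3 mTerc-/-Puma+/+, and the Puma-/- points, at 0.603 to 1.02, lie between them and the labelled double mutants.

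By chromosome, medians of the fitted log2 fold change lay between -0.04 and 0.013 on 18 autosomes and at 0.051 on chromosome 14. The difference came from labelled double mutant 4, in which genes of chromosome 14 at a mean of at least 1 CPM had a median of 0.14 above the G3 mTerc-/-Puma+/+ mean, beside 0.036 on the next highest autosome. In replicates 1 and 3 the chromosome 14 medians were -0.024 and 0.00087. The shift in replicate 4 was present along the chromosome, with medians from 0.028 to 0.2 in its 7 windows of 20 Mb. Blk lies on chromosome 14, where its 5.55 CPM in replicate 4 fell between the 4.54 and 6.25 CPM of the other labelled double mutants. The part of this shift in the result for Blk was not tested. Around Bbc3 on chromosome 7, 30 protein-coding genes that start within 1 Mb of it were tested. Of these, 19 were higher and 11 lower, with a median of 0.029. At an unadjusted p under 0.05, 3 were higher and 0 lower, beside 4.37% and 1.69% of all genes. Of the 30, 1 was higher without overlap of libraries, beside 3.16% of all genes, and 0 passed the adjusted threshold.

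**Figure D5:**
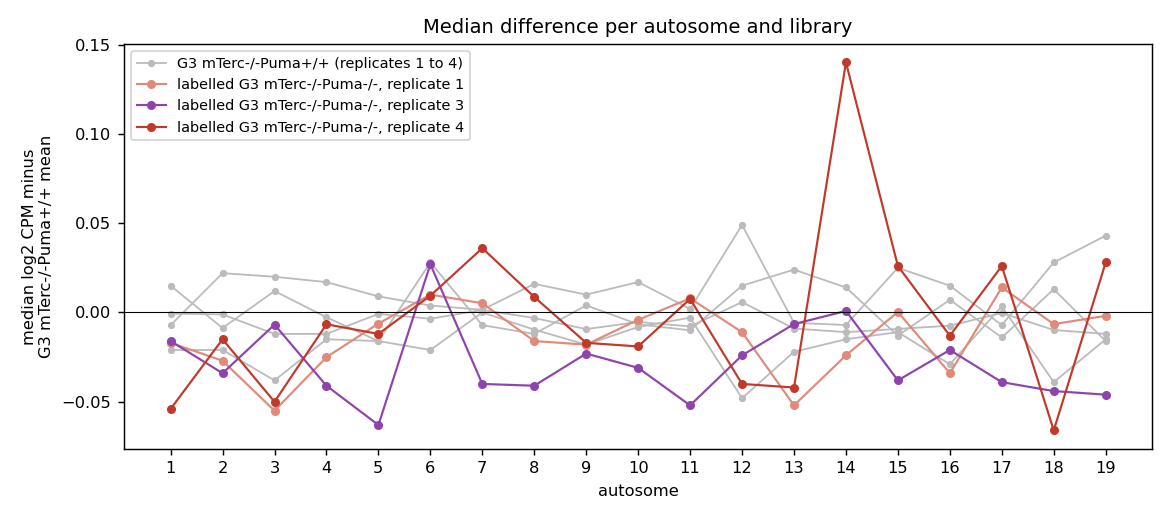
Median difference in log2 CPM from the G3 mTerc-/-Puma+/+ mean for the genes of each autosome at a mean of at least 1 CPM, with 1 line a library; grey lines are the 4 G3 mTerc-/-Puma+/+ libraries. Labelled double mutant 4 reaches 0.14 on chromosome 14, and the lines lie between -0.066 and 0.049 elsewhere.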

How the data were processed

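Poly(A)-selected RNA of lineage-negative marrow was sequenced from both fragment ends. The authors trimmed adapters, aligned the reads and deposited raw counts per gene, without normalization. The submitters' processing notes name Trimmomatic 0.38 and STAR 2.5.2b with mm10, and the annotation release and strand setting are not given in the sources used here, so a gene and its antisense partner may share reads. Gene names and positions are from GENCODE on GRCm38, and 563 identifiers (0.0643% of counts) matched no gene there.

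Counts of 14 libraries in 4 genotypes were fitted in R 4.3.3 with edgeR 4.0.16 (TMM, factors 0.926 to 1.07, filterByExpr, robust quasi-likelihood test, common biological coefficient of variation 0.251), and p-values were adjusted by the Benjamini-Hochberg method over 18983 genes, with a threshold of 0.05. Log2 CPM used a prior count of 2. An exact permutation test was added for single genes. Limma 3.58.1 and DESeq2 1.42.0 served as alternatives, beside other scalings and filters, the compared groups alone, a replicate block, an Xist covariate and the omission of each library. A fit without robust moderation was chosen after seeing the data. Calculations were tested on simulated data. The study's own tool was limma, which enters here as limma-voom.

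Genes named are all called autosomal genes, the 8 per direction with the lowest p among protein-coding genes with separate groups and at least 1 CPM in a group, Bbc3, Terc, Trp53 and Cdkn1a, and members of the lists. Members and lists were chosen with earlier results of these data known, so lists are given as counts and medians without a test. A count of 0 allows up to 3 counts, at most 0.0278 CPM. A called gene is included in the counts but is not reported here by name.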

Additional observations from a re-analysis of the deposited data

Results flagged for a closer look

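A library stood far from the other 3 of G3 mTerc-/-Puma+/+ in 3 of the 67 genes and list sums examined in that group by Dixon's ratio, where chance gives about 1 in 20. Fem1b was at 71.3 CPM in replicate 1 beside 74.1 to 74.4 CPM in the others, a small gap in absolute terms. The summed level of the telomerase and shelterin genes was 1040 CPM in replicate 2 beside 939 to 949 CPM. That of the nuclear-encoded respiratory chain genes was 14200 CPM in the same replicate 2 beside 10900 to 11200 CPM, and the labelled double mutants ran from 9820 to 12600 CPM.

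In the library outside the comparison, the labelled double mutant 2, globin transcripts summed to 1250 CPM, above the 21.5 to 62.5 CPM of the WT libraries. The 7 libraries compared held 17.3 to 193 CPM.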

How the results depend on the processing

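The count of 11 called autosomal genes was 5 with all 15 libraries, 6 with library size alone, 23 with no low-count filter, 0 with the 2 groups alone and 164 in DESeq2, and leaving out 1 library gave 3 to 45. The 3 came without G3 mTerc-/-Puma+/+ replicate 2 or 3 and the 45 without its replicate 1. All 11 genes kept their direction wherever they were tested, and Fcrla and Blnk kept their call in every fit that left out a library. Same-numbered libraries did not deviate together (correlations 0.081, -0.0812 and 0.0854), so that the numbers pair no samples. A replicate block gave 18 calls, with 6 of the 11 and 4 plasmacytoid dendritic cell genes among them. Without robust moderation 12 genes passed, the 11 and Hist1h1t, which was lower. List medians without 1 library ran from 0.789 to 1.70 for the pre-B receptor, 0.639 to 0.920 for early B, 0.300 to 0.776 for later B, 0.471 to 0.847 for plasmacytoid dendritic cell and 0.643 to 0.926 for type I interferon-stimulated genes. With all 15 libraries the last 3 were 0.315, 0.308 and 0.658. Limma-voom gave 0.741 for plasmacytoid dendritic cell genes, and labelled double mutant 3 alone gave 0.646 for interferon-stimulated genes. Trp53 turned to 0.015 with library size alone, 0.005 without G3 mTerc-/-Puma+/+ replicate 1 and 0.055 without labelled double mutant 3, with a range of -0.084 to 0.055 when 1 library was left out. Egr3 was -0.259 with labelled double mutant 3 alone, and Igkv4-54 was -2.83 without that library. The causes were not tested. Labelled double mutant 3 alone against the 4 libraries, where its spread is assumed to equal that of the other groups, gave 8 calls with 5 of the 11 among them. With the Xist covariate 8 of the 11 stayed called. Most called genes lie at a few CPM, where counting error adds to the spread.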

Other observations

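Among the labelled double mutants, expression of the Y chromosome was uneven. Replicate 3 held 46.0 CPM of Ddx3y and 13 CPM of Uty, within the 42.8 to 48.3 CPM and 11.1 to 15.1 CPM of G3 mTerc-/-Puma+/+, but 6.72 CPM of Eif2s3y and 4.02 CPM of Kdm5d beside 47.0 to 53.2 CPM and 26.4 to 29.4 CPM. Kdm5d and Eif2s3y neighbour each other at Y:897788 to 1028847, and Uty and Ddx3y follow from 1096861 to 1286629.

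Single members went apart from their lists. Ear2, an eosinophil-associated ribonuclease with close paralogs, was at 2.30 to 5.57 CPM in G3 mTerc-/-Puma+/+ and at 9.09, 16.7 and 8.23 CPM in the labelled double mutants (log2 1.55, adjusted p = 0.156, edgeR), while the eosinophil peroxidase Epx was at 28.8 to 43.6 CPM against 16.7, 31.2 and 25.9 CPM (log2 -0.60, adjusted p = 0.754). Ly6a, which encodes the stem cell antigen Sca-1 and is also induced by interferon, was at 8.85 to 21.4 CPM against 24.2, 41.0 and 27.0 CPM (log2 1.07, adjusted p = 0.299), beside 120 to 155 CPM against 127, 117 and 114 CPM of Kit.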
